A study of Rattus norvegicus with 12 samples.

Results

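The genes described here encode the 5 subunits of the transcription factor NF-kB and 5 of the proteins that its activity induces. Most of the latter restrain it or the signals leading to it. The 10 genes are Nfkb1, Nfkb2, Rel, Rela, Relb, Nfkbia, Nfkbie, Nfkbiz, Tnfaip3 and Birc3. The array probes were taken by gene name. That gave 10 probes of 9 genes, out of 45598 probes and 36172 gene names on the array. Rel had no probe under its gene name, and 2 further probes, one for Rel and one for Relb, were named for a member only in the deposited probe description. They are reported as such, which makes 12 probes of 10 genes. All 12 passed the filter on dim probes, and all 12 were well above background on each of the 9 arrays of cultured cells.

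RNA was measured on 12 single-colour arrays, 3 in each of 4 groups, all from F344 rats. Small hepatocytes, a progenitor-like fraction of liver cells that forms colonies, were sorted for CD44 on day 9, grown on Matrigel in serum-free medium with 10 ng/mL EGF, 10 mM nicotinamide, dexamethasone and insulin, and passaged. At passage 2 they were collected after 3 h on laminin-111 (LN111), on laminin-511 (LN511) or on Matrigel (Mat), a basement membrane extract. Mature hepatocytes freshly isolated from liver (MH) were the control and had not been in culture, so culture, sorting, passage and cell type differ together between any cultured group and MH. Whether the replicates of a group were different animals, different cultures or repeats of 1 culture is not stated in the labels, and the p-values then rest on a spread between arrays that may be technical.

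NF-kB is a dimer of Rel-family subunits that inhibitor proteins of the IkB family hold in the cytoplasm. Signals from receptors such as those for TNF and interleukin-1 activate a kinase complex that marks the inhibitors for destruction, and the freed dimers enter the nucleus and bind kappaB sites. Several of the genes that NF-kB switches on encode its own inhibitors and subunits, which closes a feedback loop, and in liver the pathway is known for its part in inflammation, hepatocyte survival and regeneration.

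Hepatocyte and progenitor markers followed the labels. Of 12 hepatocyte markers tested, 11 were lower in cultured cells than in MH (median log2 difference -3.36), and 9 of 10 progenitor and biliary markers were higher (median 6.88), where 30.7% of 18949 genes were higher and 42.0% were lower. Cd44, on which the cells were sorted, Krt7, Krt19, Sox9 and Spp1 were not well above background on any MH array. Cyp2c13 and Cyp3a2 were not on any cultured array. These genes passed the filter on dim probes only through the groups where they were high, so the counts are no independent support. Between 52.18% and 62.75% of spots were well above background and none was saturated. The array of LN111 replicate 3 had 1126 outlier spots, against 350 to 499 on the other arrays. All arrays of LN111 and LN511 and the array of Mat replicate 3 shared a slide, and the arrays of Mat replicates 1 and 2 and of MH shared the other. Values below are log2 of the signal relative to the 75th percentile of the same array, and differences are differences of these log2 values, given with their standard error (SE) and the adjusted p of limma.

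All 10 probes found by gene name were higher in the cultured cells, taken as the mean of LN111, LN511 and Mat, than in MH at an adjusted p under 0.05, in a comparison where 31.2% of 23699 probes were. Their log2 differences ran between 0.97 and 4.95 with a median of 1.93, where the median of all probes was -0.16. Tnfaip3 and the second Nfkb1 probe passed the filter on dim probes only through the cultured groups, in which they were high, so their p-values are no independent support. The same holds for the probes of Rel and Relb known by description and for their p-values. The other 8 probes by gene name were well above background on all 12 arrays, and 8 of 8 were higher, with a median of 1.86, where 23.9% of such probes were and their median was -0.30. The members were chosen with earlier results of these data known, so this count is no independent support either. Both probes known only by description were higher as well. In 8 of the 10 probes every cultured array lay above every MH array, as did 22.3% of all probes. Fewer cells expressing a gene and less RNA per cell cannot be told apart in such bulk samples.

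**Figure D1:**
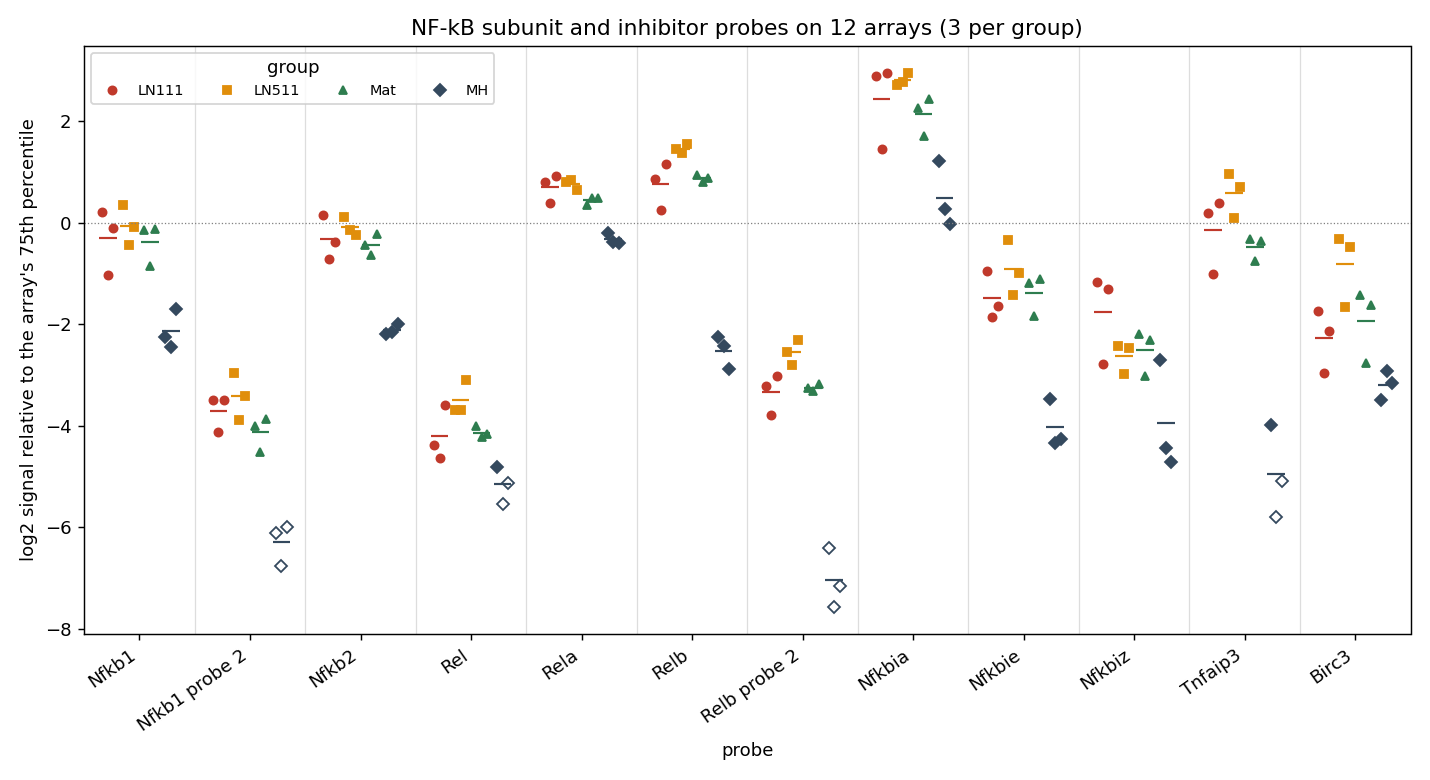
Log2 signal relative to the 75th percentile of each array (vertical axis) for the 12 probes (horizontal axis), with 1 point per array and a bar at the mean of 3 arrays, in the order LN111, LN511, Mat and MH. Open symbols are spots not well above background. The 9 cultured arrays lie above all 3 MH arrays for 10 of the 12 probes, with overlap for Nfkbiz and Birc3.

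Among the subunits, Relb differed most. Relb encodes the subunit that pairs with processed Nfkb2 product in the alternative branch of the pathway. Its probe by gene name read 0.87, 0.26 and 1.15 on the LN111 arrays, 1.45, 1.37 and 1.55 on LN511, 0.95, 0.81 and 0.88 on Mat, and -2.26, -2.42 and -2.88 on MH. The lowest cultured array, LN111 replicate 2, stood well clear of the highest MH array. The log2 difference of cultured cells from MH was 3.55 ± 0.19 (SE, adjusted p = 6.61e-08), an 11.7-fold higher level, and 95.5% of all probes had a smaller difference. The second Relb probe was not well above background on any MH array. It read -3.21, -3.78 and -3.02 on LN111, -2.55, -2.80 and -2.30 on LN511, -3.26, -3.32 and -3.18 on Mat, and -6.41, -7.57 and -7.16 on MH. Against the background level it was at least 8.22-fold higher in cultured cells (adjusted p = 1.54e-07). Here and below, "at least" sets the cultured mean against the mean, over the MH arrays, of the higher of the probe's own signal and the lowest signal of any probe well above background.

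Nfkb1, whose product is processed to a DNA-binding subunit without an activation domain, was represented by a pair of probes that gave the same direction. The brighter one read 0.22, -1.02 and -0.11 on LN111, 0.36, -0.43 and -0.09 on LN511, -0.15, -0.85 and -0.13 on Mat, and -2.26, -2.45 and -1.69 on MH, a log2 difference of 1.89 ± 0.29 (adjusted p = 0.000181). The other, whose ends lie 6247 bases apart in the genome and so span an intron, read -3.49, -4.13 and -3.49 on LN111, -2.96, -3.88 and -3.41 on LN511, -4.00, -4.52 and -3.86 on Mat, and -6.12, -6.76 and -6.00 on MH. No MH array was well above background there, and cultured cells were at least 4.90-fold higher (adjusted p = 6.23e-06). With another background correction (normexp, which adds an offset of 50 to every signal) this probe differed by 0.39 and did not pass (adjusted p = 0.0952). The groups did not overlap on either probe.

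Nfkb2, the precursor of the Relb partner, read 0.16, -0.72 and -0.38 on LN111, 0.12, -0.14 and -0.24 on LN511, -0.44, -0.63 and -0.23 on Mat, and -2.20, -2.15 and -1.99 on MH. MH arrays lay close together and below every cultured array, and the log2 difference was 1.83 ± 0.18 (adjusted p = 5.57e-06). Rela, the main transactivating subunit of the canonical branch, had the smallest difference of the 12 probes. Its values were 0.80, 0.40 and 0.93 on LN111, 0.81, 0.85 and 0.65 on LN511, 0.36, 0.49 and 0.48 on Mat, and -0.20, -0.37 and -0.40 on MH. The difference of 0.97 ± 0.13 (adjusted p = 5.08e-05), a 1.95-fold change, was still larger than the spread, with no overlap between cultured and MH arrays.

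Rel encodes a subunit best known in lymphoid cells. Its probe, known by description only, was dim: it read -4.38, -4.63 and -3.59 on LN111, -3.69, -3.69 and -3.09 on LN511, -4.01, -4.22 and -4.17 on Mat, and -4.81, -5.54 and -5.12 on MH, where 1 of 3 arrays was well above background. The log2 difference was 1.22 ± 0.24 (adjusted p = 0.000867), and with the normexp correction it was 0.01 (adjusted p = 0.944). The sequences of the Nfkb1, Relb and Rel probes are shown because the reading of these 3 genes rests on more than 1 probe or on a probe without a gene name. Positions are in the rat build rn4 given in the files, and the letters are those of the deposited probes, 5′ to 3′.
Nfkb1, brighter probe (chr2:233091704-233091763, minus strand): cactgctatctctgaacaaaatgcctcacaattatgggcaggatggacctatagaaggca
Nfkb1, probe across an intron (chr2:233100929-233107175, minus strand): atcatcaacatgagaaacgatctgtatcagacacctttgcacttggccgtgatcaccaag
Relb, probe named by description (chr1_random:1460908-1460967, plus strand): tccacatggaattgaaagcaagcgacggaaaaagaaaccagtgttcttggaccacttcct
Rel, probe named by description (chr14:104645730-104645789, minus strand): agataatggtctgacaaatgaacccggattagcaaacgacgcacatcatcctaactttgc

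The inhibitors of the IkB family were higher in cultured cells too. Nfkbia encodes IkB-alpha, the inhibitor that NF-kB resynthesises fastest after activation. It read 2.90, 1.45 and 2.96 on LN111, 2.71, 2.78 and 2.96 on LN511, 2.27, 1.72 and 2.44 on Mat, and 1.21, 0.28 and -0.02 on MH. The lowest cultured value, that of LN111 replicate 2, was 1.45, and the highest MH value, that of MH replicate 1, was 1.21, so that the groups came close without overlap. The log2 difference was 1.97 ± 0.35 (adjusted p = 0.000449). Nfkbie encodes IkB-epsilon, an inhibitor known to be induced later. It read -0.94, -1.86 and -1.63 on LN111, -0.33, -1.42 and -0.98 on LN511, -1.18, -1.83 and -1.11 on Mat, and -3.47, -4.34 and -4.26 on MH. Every cultured array was above every MH array, by 2.77 ± 0.29 on average (adjusted p = 1.17e-05).

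Nfkbiz encodes IkB-zeta, a nuclear protein of the family that helps to switch on a subset of NF-kB targets. It read -1.16, -2.79 and -1.31 on LN111, -2.42, -2.97 and -2.46 on LN511, -2.19, -3.01 and -2.30 on Mat, and -2.71, -4.44 and -4.71 on MH. MH replicate 1 lay among the cultured arrays, and 6 of 9 cultured arrays were above all MH arrays. The log2 difference of 1.67 ± 0.46 passed the test (adjusted p = 0.00725), with a 95% interval that ran between 0.65 and 2.68. With the normexp correction it was 0.76 (adjusted p = 0.0508).

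Tnfaip3 and Birc3 act on the signal before NF-kB. Tnfaip3 encodes a ubiquitin-editing enzyme that shuts down signalling from the TNF receptor, and its means differed most of the 12 probes. Its probe read 0.20, -1.01 and 0.40 on LN111, 0.96, 0.09 and 0.70 on LN511, -0.31, -0.76 and -0.35 on Mat, and -3.99, -5.80 and -5.09 on MH, where 1 of 3 arrays was well above background. The log2 difference was 4.95 ± 0.39 (adjusted p = 1.29e-06). It rests on MH values near background, so its size is not exact. Birc3 encodes a ubiquitin ligase that sits on the TNF receptor complex and restrains the alternative branch. It read -1.73, -2.95 and -2.13 on LN111, -0.31, -1.65 and -0.48 on LN511, -1.43, -2.77 and -1.61 on Mat, and -3.49, -2.92 and -3.15 on MH. LN111 replicate 2 was level with MH replicate 2, and 8 of 9 cultured arrays were above all MH arrays. The log2 difference was 1.51 ± 0.37 (adjusted p = 0.00411).

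Each cultured group was also set against MH alone. On LN111 9 of 10 probes by gene name were higher than in MH, in a comparison where 27.1% of all probes were. The exception was Birc3, at 0.91 ± 0.46 (adjusted p = 0.102), which passed without LN111 replicate 2 (1.25, adjusted p = 0.0433). On LN511 9 of 10 were higher, where 31.5% of all probes were, and the exception was Nfkbiz, at 1.34 ± 0.56 (adjusted p = 0.0545), which passed without MH replicate 1 (1.96, adjusted p = 0.00527) and without LN111 replicate 2 (1.34, adjusted p = 0.0309). On Mat 10 of 10 were higher, where 26.3% of all probes were. Without any one of the arrays LN511 replicates 1 and 3, Mat replicates 1 and 3 and MH replicates 2 and 3, Nfkbiz on Mat did not pass, at 1.08 to 1.46 (adjusted p = 0.0517 to 0.143). Birc3 on Mat did not pass without Mat replicate 1 or 3 or MH replicate 1 or 3, at 1.00 to 1.27 (adjusted p = 0.0669 to 0.116), and Rel on LN111 did not without MH replicate 2 (0.77, adjusted p = 0.055). The 3 comparisons share the MH arrays. Tnfaip3 differed from MH by 4.82 ± 0.48 on LN111, 5.54 ± 0.48 on LN511 and 4.49 ± 0.48 on Mat, and Relb by 3.28 ± 0.23, 3.97 ± 0.23 and 3.40 ± 0.23 in the same order.

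**Figure D2:**
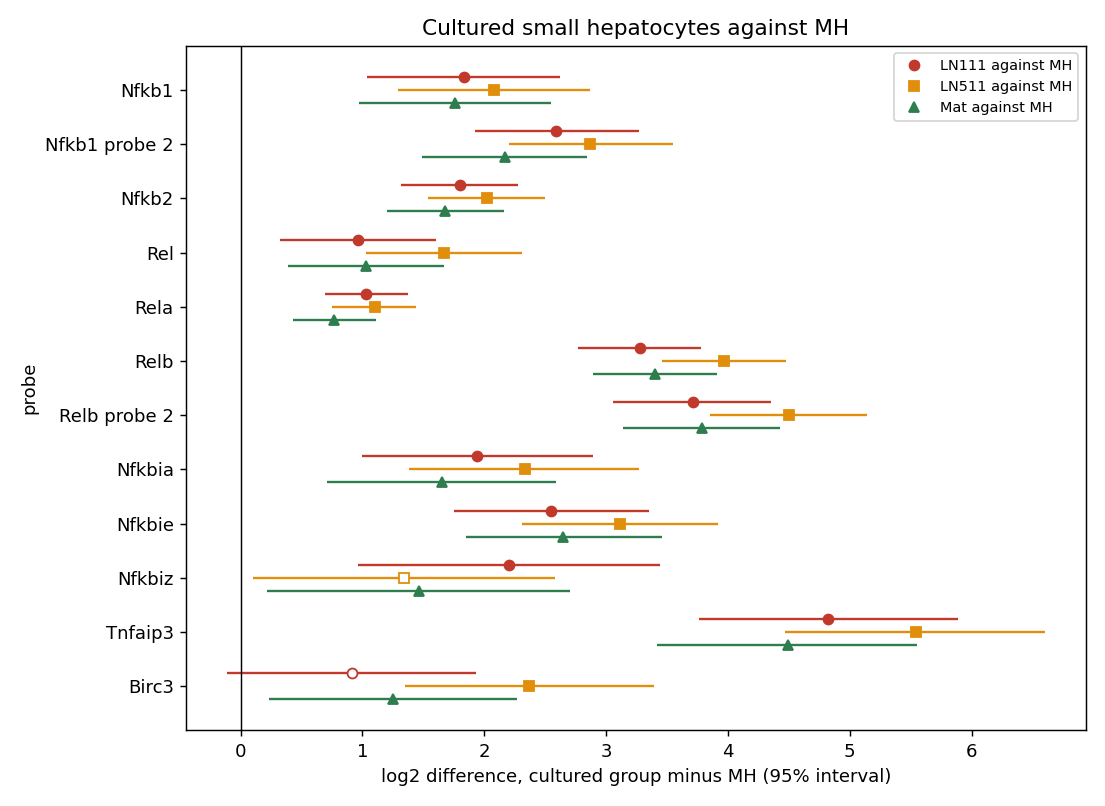
Log2 difference from MH (horizontal axis) of each cultured group for the 12 probes (vertical axis), with 95% intervals, filled where the adjusted p was under 0.05. All 36 differences lie above 0, and the open symbols are Nfkbiz on LN511 (1.34) and Birc3 on LN111 (0.91).

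No LN111 or LN511 array shared a slide with MH, so for those groups slide and group could be separated only through Mat replicate 3. With slide as a block, 7 of 10 probes were higher in cultured cells than in MH, where 21.9% of all probes were. Nfkbia then differed by 1.63 (adjusted p = 0.0517), Nfkbiz by 1.43 (adjusted p = 0.177) and Birc3 by 1.13 (adjusted p = 0.184). The block left 6 of 10 probes called for LN111 (16.4% of all probes) and 6 of 10 for LN511 (20.3%). Nfkb1 was among those no longer called in both, at 1.46 (adjusted p = 0.106) and 1.71 (adjusted p = 0.0633). Within the slide that held MH, Mat replicates 1 and 2 were higher than MH in 8 of 10 probes, where 24.6% of all probes were. There Tnfaip3 differed by 4.42 ± 0.55 (adjusted p = 0.00159), Relb by 3.40 ± 0.24 (adjusted p = 0.000299) and Nfkbia by 1.51 ± 0.42 (adjusted p = 0.0266), and Nfkbiz at 1.36 ± 0.67 (adjusted p = 0.133) and Birc3 at 1.09 ± 0.44 (adjusted p = 0.0784) did not pass.

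The substrates addressed whether 3 h on a given laminin altered these genes. In the fit without a replicate block, none of the 10 probes by gene name passed the adjusted threshold in any comparison among LN111, LN511 and Mat, or in the moderated F test over the 3 groups, where 12.7% of all probes did. In LN111 against Mat no probe of the 22385 tested passed, and an unadjusted p under 0.05 was reached by 12.2% of all probes and by 0 of the 10. In LN511 against Mat 8.03% of all probes passed, and in LN111 against LN511 17.7% did. Members reached an unadjusted p under 0.05 in 3 of 10 and 2 of 10 cases there, where 22.1% and 33.0% of all probes did. Whether arrays with the same replicate number belong together is not stated in the labels. Deviations from group means correlated at 0.117 to 0.716 over the 3 same-number pairs of LN511 and Mat. Over their 6 other pairs they correlated at -0.651 to 0.527, so a pairing is not established. With the number as a block, 3 of 10 probes were higher on LN511 than on Mat, where 13.1% of all probes passed in either direction. They were Birc3 (1.12 ± 0.12, adjusted p = 0.0042), Tnfaip3 (1.05 ± 0.21, adjusted p = 0.0246) and the second Nfkb1 probe (0.71 ± 0.14, adjusted p = 0.0264). With the same block 4 of 10 probes passed in LN111 against LN511, where 26.8% of all probes did. Of the Mat arrays only replicate 3 shared a slide with LN511. With slide as a block instead, 0 of 10 probes passed in LN511 against Mat, where 0.353% of all probes were higher and 0.0223% lower. Birc3 then differed by 0.79 (adjusted p = 0.741), Tnfaip3 by 0.93 (adjusted p = 0.599) and the second Nfkb1 probe by 0.44 (adjusted p = 0.753).

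LN511 had the highest group mean for 9 of the 10 probes, where it had for 30.3% of all probes. MH had the lowest for 10 of 10, where it had for 36.8%, and among the probes with MH lowest LN511 was highest in 56.2%. The order of the means was LN511, LN111, Mat and MH for Nfkb1, Nfkb2, Rela, Nfkbia and Tnfaip3. It was LN511, Mat, LN111 and MH for Rel, Relb, Nfkbie and Birc3, and LN111, Mat, LN511 and MH for Nfkbiz. No neighbouring cultured groups in these orders differed at the adjusted threshold without a block. The lowest cultured group differed from MH in all genes but Nfkbiz and Birc3. The place of LN511 in these orders depended on the scaling. Without scaling, Relb was -0.52 and Tnfaip3 -0.05 in LN511 against Mat, where the median of all probes was -0.96. The second probes of Nfkb1 and Relb and 6 further probes changed sign there as well. The greatest substrate difference by size was that of Birc3, at -1.46 ± 0.50 in LN111 against LN511 (95% interval -2.61 to -0.31, adjusted p = 0.0821), with all 3 LN111 arrays below all 3 LN511 arrays, as in 24.3% of all probes. Tnfaip3 was 1.05 ± 0.39 higher by its mean on LN511 than on Mat (95% interval 0.16 to 1.94, adjusted p = 0.154 without a block). For Tnfaip3, Rela, Relb and Nfkbia, 4 of the 10 probes, every LN511 array lay above every Mat array, as in 25.2% of all probes.

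For Relb the probes fell on either side of the threshold. In LN111 against LN511 the probe by gene name differed by -0.70 ± 0.22 (adjusted p = 0.0607) and the probe named by description by -0.79 ± 0.22 (adjusted p = 0.0409), where 11.7% of all probes were lower in LN111. All 3 LN111 arrays were below all 3 LN511 arrays on both probes. Of 21 alternatives 6 kept this call and 15 lost it, at -0.95 to -0.29 over all of them. It was lost in the fit of the slide that held both groups (-0.79, adjusted p = 0.112) and without LN111 replicate 2 (-0.57, adjusted p = 0.0587). Nfkbiz was the member with the opposite sign: LN111 exceeded LN511 by 0.86 ± 0.44 (adjusted p = 0.215), and by 1.38 (adjusted p = 0.0173) without LN111 replicate 2. In LN111 against Mat the 95% intervals of the 10 probes differed in width, with that of Rela at -0.10 to 0.63 and the outermost bounds of all at -1.49 and 1.76.

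**Figure D3:**
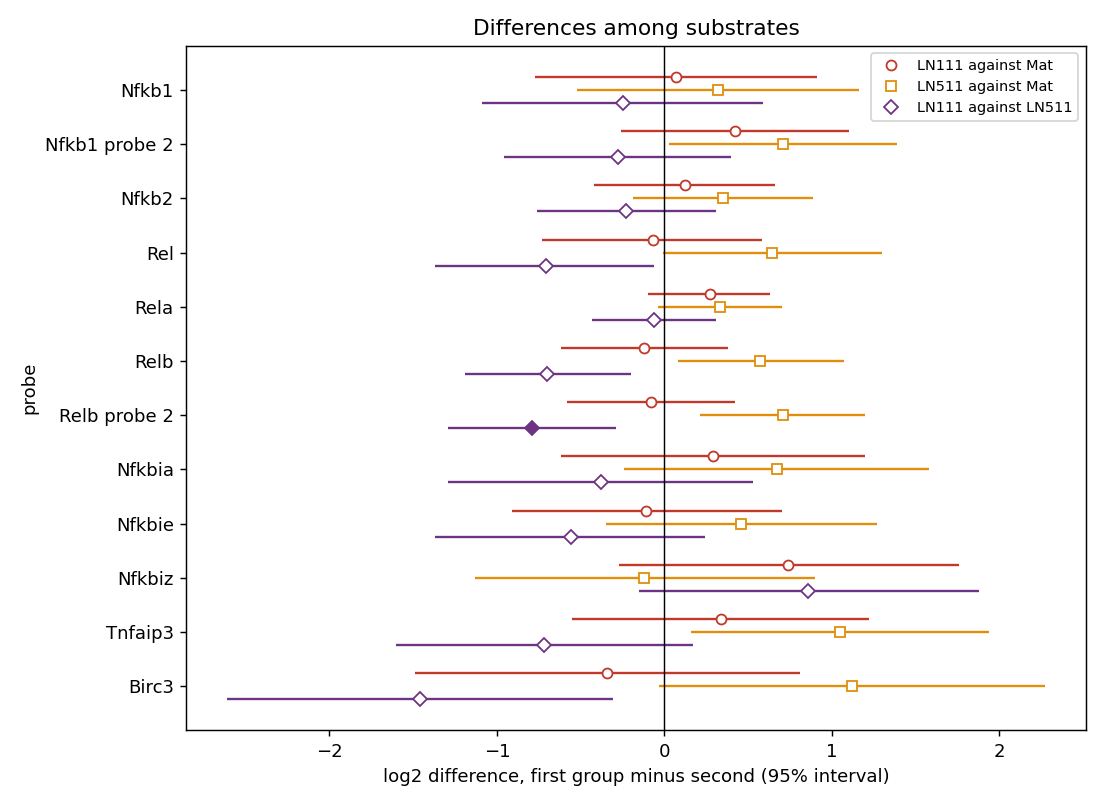
Log2 difference between substrates (horizontal axis) for the 12 probes (vertical axis), with 95% intervals, filled where the adjusted p was under 0.05. The filled symbol is the second Relb probe in LN111 against LN511, at -0.79.

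Within the cultured groups the same arrays were low for most members. LN111 replicate 2 was the lowest array of its group for 12 of 12 probes, where it was lowest for 30.4% of all probes. LN511 replicate 2 was lowest for 9 of 12 (35.3% of all probes) and Mat replicate 2 for 11 of 12 (30.7%). In MH, replicate 1 was the highest array for 8 of 12 probes (32.0%). Tnf, the cytokine that activates the pathway, was low on the same arrays: it read -0.44, -4.58 and -1.71 on LN111, 0.38, -2.97 and -0.13 on LN511, -0.73, -4.03 and -0.87 on Mat, and -5.06, -5.34 and -3.37 on MH. Replicate 2 was the lowest of each cultured group, and the part of this in the results was not tested. Without LN111 replicate 2 and Mat replicate 2, an alternative chosen after the data were seen, 10 of 10 probes were still higher in cultured cells than in MH.

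The promoters were read from RefSeq (build GRCr8), whose table matched 8 of the 10 genes. Windows of 250 bases before the gene start were searched on both strands for the kappaB consensus, the sequence of 10 bases that NF-kB dimers bind. Of the 8 windows 6 held a match, against 3.54% of 33469 windows of all genes. Several of these genes belong to the set because they are known NF-kB targets, so the match is a description of their promoters. Tnfaip3 had 3 matches, the first base of which lay 170, 67 and 55 bases before the start, where 0.406% of all windows had 2 or more. Rel had 2 overlapping matches, which began 82 and 81 bases before the start. Nfkbie had 1 that began at 164, Nfkbia 1 at 31, Nfkb2 1 at 20 and Nfkbiz 1 at 13. The windows of Nfkb1 and Rela held none. A relation between the matches and the differences from MH was not tested. The windows of 4 members that were higher in cultured cells are shown with the match in capitals, 5′ to 3′ toward the gene.
Tnfaip3 (chr1:15543980-15544229, minus strand): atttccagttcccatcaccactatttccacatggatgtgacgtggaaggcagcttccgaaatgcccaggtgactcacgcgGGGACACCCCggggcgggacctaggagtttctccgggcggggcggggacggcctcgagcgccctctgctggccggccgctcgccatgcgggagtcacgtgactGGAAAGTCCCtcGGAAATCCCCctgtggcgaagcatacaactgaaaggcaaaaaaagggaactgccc
Nfkbia (chr6:78597073-78597322, minus strand): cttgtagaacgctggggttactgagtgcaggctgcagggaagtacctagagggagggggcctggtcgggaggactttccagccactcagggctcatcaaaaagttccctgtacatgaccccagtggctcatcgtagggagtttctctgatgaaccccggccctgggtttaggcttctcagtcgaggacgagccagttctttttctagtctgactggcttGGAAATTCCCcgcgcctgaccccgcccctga
Nfkb2 (chr1:255108124-255108373, plus strand): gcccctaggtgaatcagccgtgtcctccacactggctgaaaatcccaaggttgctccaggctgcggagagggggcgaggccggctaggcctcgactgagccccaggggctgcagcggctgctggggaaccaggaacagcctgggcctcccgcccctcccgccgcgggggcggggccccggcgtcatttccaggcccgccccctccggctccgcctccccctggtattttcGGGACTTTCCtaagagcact
Nfkbiz (chr11:58251471-58251720, plus strand): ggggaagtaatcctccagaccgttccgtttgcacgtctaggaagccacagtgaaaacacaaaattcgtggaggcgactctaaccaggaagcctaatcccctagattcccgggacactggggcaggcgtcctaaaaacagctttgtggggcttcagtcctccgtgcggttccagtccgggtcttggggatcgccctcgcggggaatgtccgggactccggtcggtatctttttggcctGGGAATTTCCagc

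**Figure D4:**
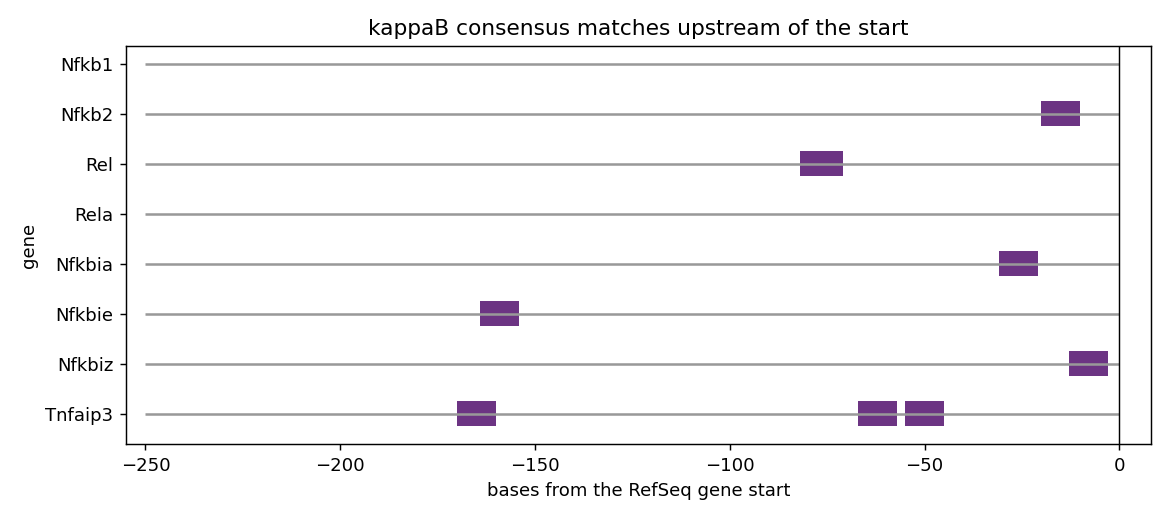
Position of kappaB consensus matches (boxes) in the 250 bases before the RefSeq gene start (horizontal axis, bases from the start at 0) of 8 members (vertical axis). Tnfaip3 has 3 boxes, the overlapping matches of Rel appear as 1 box, and Nfkb1 and Rela have none.

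Genes upstream of NF-kB had no common direction against MH. Of 35 tested, 11 were higher and 13 lower in cultured cells, where 30.7% of 18949 genes were higher and 42.0% were lower. The median log2 difference was 0.03, where that of all genes was -0.18. Tnf was higher by 2.91 ± 1.05 (adjusted p = 0.0279), and its arrays overlapped with MH, where 1 of 3 arrays was well above background. The other cytokines named were lower: Il1a was at least 61.1-fold lower in cultured cells, where no array was well above background, and Il1b differed by -4.16 ± 1.09 (adjusted p = 0.00567), with 5 of 9 cultured arrays well above background. Tnf and Ticam1, another of the 35 genes, passed the filter on dim probes only through the cultured groups, and Il1a and Il1b only through MH. The counts are therefore no independent support. Of the receptors, Tnfrsf1a, the TNF receptor of most cells, was lower (-0.64 ± 0.10, adjusted p = 0.00014) and Il1r1, the interleukin-1 receptor, was higher (1.42 ± 0.19, adjusted p = 5.6e-05). The kinase complex was split. Chuk was lower (-1.26 ± 0.13), Ikbkb was higher (0.76 ± 0.17), and Ikbkg, its scaffold, did not pass (0.06 ± 0.23, adjusted p = 0.831). Map3k14, the kinase that starts the alternative branch, was higher by 0.71 ± 0.10 (adjusted p = 0.000104).

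Other inhibitors were divided as well, with 9 of 21 higher, 8 lower and a median of 0.43, where 30.7% of all genes were higher and 42.0% lower. Zc3h12a, one of the 21, was not well above background on any MH array. It passed the filter on dim probes only through the cultured groups, so the count is no independent support. Nfkbid, a nuclear IkB protein, was higher (2.15 ± 0.17, adjusted p = 1.36e-06), as were Tnip1, a Tnfaip3-binding protein (1.57 ± 0.18), and Cyld, a deubiquitinase (0.90 ± 0.14). Nfkbid had another probe that differed by 0.32. Birc2, the close relative of Birc3, was lower by its brightest probe (-1.64 ± 0.13), as was Traf1 (-1.45 ± 0.45), a TNF receptor adaptor. Nfkbib, the gene of IkB-beta, which is not known as a fast feedback target, did not pass (0.46 ± 0.24, adjusted p = 0.107), nor did Bcl3, a nuclear IkB protein (0.57 ± 0.29, adjusted p = 0.101).

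Of the listed NF-kB target genes, 24 of 36 were higher in cultured cells and 4 were lower, where 30.7% and 42.0% of 18949 genes were. The median log2 difference was 2.06. Ccl7, Ccl20, Cxcl3, Cxcl6, Cx3cl1, Csf2, Ptgs2, Lcn2, Ptx3 and Plau were not well above background on any MH array. They passed the filter on dim probes only through the cultured groups, so the count and the median are no independent support. The chemokine Ccl2, which attracts monocytes, read 5.70, 4.17 and 5.93 on LN111, 4.98, 2.27 and 3.70 on LN511, 5.0, 3.26 and 5.17 on Mat, and -5.74, -5.01 and -5.03 on MH. No cultured array came near MH, where 1 of 3 arrays was well above background, and the log2 difference of 9.72 ± 0.60 (adjusted p = 2.12e-07) is therefore not exact in size. Ccl2 too passed the filter on dim probes only through the cultured groups. Cxcl1, a neutrophil chemokine, was higher by 6.96 ± 0.68 and Icam1, an adhesion protein, by 1.91 ± 0.27. Sod2, the mitochondrial superoxide dismutase, did not pass (-0.30 ± 0.40, adjusted p = 0.517).

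**Figure D5:**
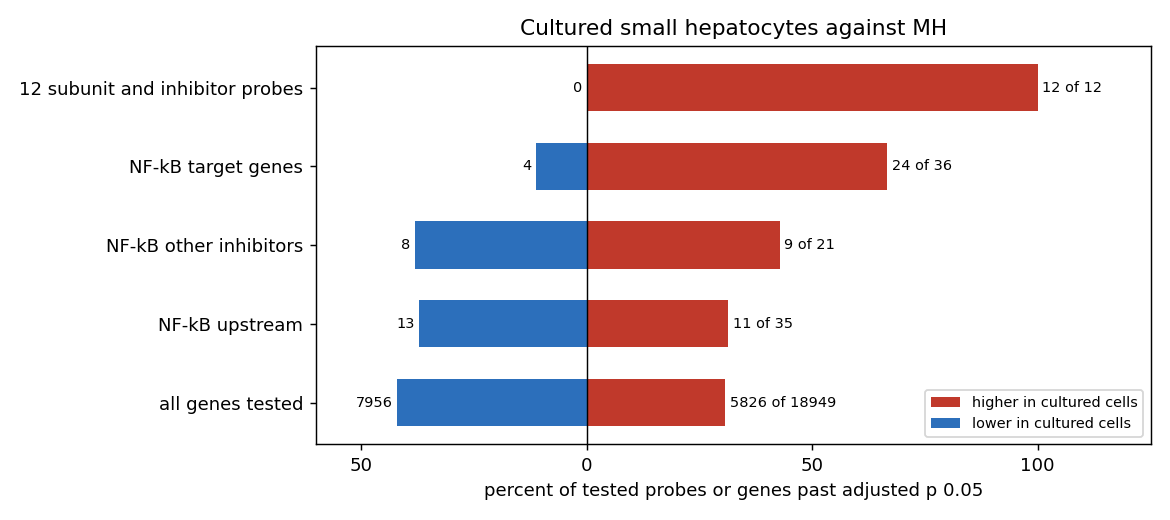
Percent of tested probes or genes (horizontal axis) that were higher (right) or lower (left) in cultured cells than in MH, for the 12 probes of subunits and inhibitors, 3 further pathway lists and all genes (vertical axis), with counts beside the bars. Of target genes 24 of 36 were higher, of other inhibitors 9 of 21 and of upstream genes 11 of 35, against 5826 of 18949 of all genes. Nfkb1 and Relb are each counted by a pair of probes among the 12. The bars include probes and genes that passed the filter on dim probes only through the cultured groups, so they are no independent support.

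Among the substrates, some of these other pathway genes passed. Map3k14 read -4.28, -4.08 and -4.14 on LN111, -3.51, -3.35 and -3.22 on LN511, -4.29, -4.20 and -4.40 on Mat, and -4.66, -4.73 and -4.57 on MH. LN511 stood above both other substrates, by -0.80 ± 0.13 for LN111 against LN511 (adjusted p = 0.00644) and by 0.94 ± 0.13 for LN511 against Mat (adjusted p = 0.00522). The comparison with Mat is largely one of slides as well. Mat replicate 3, the only Mat array on the slide of LN511, read -4.40. Over all probes, 6.89% were higher on LN511 than on Mat, and 0.353% with slide as a block. The part of the slide in the Map3k14 value was not tested. Nfkbid was lower on LN111 than on LN511 (-1.50 ± 0.22, adjusted p = 0.00479), as was Bcl3 (-0.89 ± 0.24, adjusted p = 0.0377). Over the lists, LN111 was lower than LN511 in 5 of 33 upstream genes, 5 of 21 other inhibitors and 9 of 36 targets, and higher in 1, 0 and 2, where 11.7% of all genes were lower and 6.1% were higher.

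Markers of other liver cells moved with the same comparisons. In cultured cells against MH 30.7% of 18949 genes were higher and 42.0% were lower. All 18 Kupffer cell and macrophage markers were lower in cultured cells than in MH. Their summed level, in units of the 75th percentile of the array, was 1.67 to 3.06 on LN111, 1.08 to 8.39 on LN511, 1.10 to 1.65 on Mat and 50.8 to 52.7 on MH, and Cd5l, Marco, Adgre1 and Timd4 were not well above background on any cultured array. Of 11 sinusoidal endothelial markers 10 were lower in cultured cells, with sums of 0.451 to 3.38 on LN111, 0.143 to 0.857 on LN511, 0.201 to 1.44 on Mat and 11.1 to 12.6 on MH. Lyve1, Plvap, Pecam1, Oit3, Emcn and Ptprb were not well above background on any cultured array. Like Cd5l, Marco, Adgre1 and Timd4, they passed the filter on dim probes only through MH, so both counts are no independent support. Of 9 stellate cell and fibroblast markers 5 were higher on LN111 than on LN511 (median 3.39), where 6.1% of all genes were. The other 4 did not pass, and Lrat (-1.07 ± 1.14) and Reln (-0.11 ± 1.12) had the opposite sign. Sums of the listed markers were 49.6 to 88.5 on LN111, 2.30 to 11.1 on LN511, 19.4 to 31.9 on Mat and 10.9 to 14.7 on MH. The sums follow the brightest genes, which differ between groups. Col1a1 had a mean log2 level of 5.44 on LN111 and -6.32 on MH, and Colec11 one of 1.63 and 3.25. Mesothelial markers were higher in cultured cells in 4 of 5 cases, with sums of 9.48 to 47.4 on LN111, 25.6 to 97.6 on LN511, 19.0 to 64.3 on Mat and 0.348 to 0.446 on MH. Of the 4, Wt1, Krt7 and Krt19 were not well above background on any MH array and passed the filter only through the cultured groups. Krt7 and Krt19 stand in the progenitor and biliary list too. Without Krt7 and Krt19, Msln and Wt1 were higher and Lrrn4 was lower, with sums of 6.09 to 13.7 on LN111, 8.18 to 30.2 on LN511, 6.77 to 19.7 on Mat and 0.327 to 0.436 on MH. Of the lymphocyte and neutrophil markers 4 were tested, of which 1 was higher and 2 were lower. The part of these cells in the values of the NF-kB genes was not tested.

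Across the 9 cultured arrays, the genes whose levels ran most like Nfkbia were Tmem88, Map3k8, Eif1, Nfil3 and Gpr15lg, with Pearson's r of 0.94 to 0.96 among 12187 genes compared. Without the arrays of LN111 replicate 2 and Mat replicate 2, farthest from the median of Nfkbia, r was 0.83 to 0.91. For Tnfaip3 they were Wsb1, Cks2, Gas5, Eif1 and Secisbp2l, with r of 0.94 to 0.96, and 0.87 to 0.95 without LN111 replicate 2 and LN511 replicate 1. Nfkbia and Tnfaip3 correlated with each other at r of 0.88 (Spearman's rho 0.82). It was 0.69 without the arrays of LN111 replicate 2 and Mat replicate 2, and 0.94 without those of LN111 replicate 2 and LN511 replicate 1. Over the 8 other members with a probe by gene name, r with Nfkbia ran between 0.57 and 0.88. Without LN111 replicate 2 and Mat replicate 2 it ran between -0.09 (Nfkbie) and 0.84 (Rela). With Tnfaip3, r of the 8 other members ran between 0.39 and 0.88, and between 0.44 and 0.94 without LN111 replicate 2 and LN511 replicate 1. These are descriptions of 9 arrays in 3 groups, chosen from many genes, and the arrays share their processing and scaling.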

How the data were processed

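Total RNA (100 ng per array) was labelled with Cy3, per the labels' protocols. The deposited scanner files give the processed signal, a linear intensity that Agilent Feature Extraction 10.7 (per the submitters' processing notes) had background-subtracted and detrended, per the file headers. The authors' deposited value table holds the same intensity, uncentred and unscaled between arrays, within 0.0072 on the log2 scale. The median of its columns was 61.8, 59.0 and 45.1 for LN111 arrays, 45.5, 49.0 and 43.6 for LN511 arrays, 85.5, 90.9 and 57.5 for Mat arrays, and 27.5, 27.6 and 23.6 for MH arrays. Precision is limited by the 3 arrays per group.

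Each signal was scaled to the 75th percentile of its array and taken to log2. Control spots and outlier spots were dropped, and the remaining spots of a probe were averaged. Probes entered a test when at least 1 of the groups fitted had all 3 arrays well above background. Tests were two-sided, with limma 3.58.1 (lmFit, eBayes) in R 4.3.3 and Benjamini-Hochberg adjustment over all probes (threshold 0.05). Comparisons with MH came from a fit of 12 arrays, those among substrates from the 9 cultured arrays. Genes in lists were represented by their brightest probe. Alternatives were another background correction, scaling, filter, probe choice, fit, slide, replicate block and array left out. The procedure was tested on simulated data: of changed probes in cultured cells against MH, 46% of those changed 2-fold and 84.7% of those changed 4-fold were recovered among 23656 probes. Among 22362 probes, 2-fold changes were recovered in 34% for LN111 against Mat, 37.7% for LN511 against Mat and 37.3% for LN111 against LN511, where 7.02% of calls were false. The simulation changed 100 probes per fold and drew noise independently for each array. In the data 72.4% of probes were called in cultured cells against MH, and deviations of some arrays were correlated. The simulated rates need not hold for the data. Replicate numbers come from the labels. Deviations of LN511 and Mat arrays with the same number correlated at r = 0.117 to 0.716 over 3 pairs, and at -0.651 to 0.527 over the 6 other pairs.

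The members, the gene lists and the 20 other named genes were chosen with earlier results of these data known. The rule named every member probe, those 20 genes whatever their values, and the 5 genes most like Nfkbia and Tnfaip3. Promoter windows came from RefSeq (GRCr8), without a genome.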

Additional observations from a re-analysis of the deposited data

Results flagged for a closer look

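The Relb probe known by description only differed between substrates: LN111 minus LN511 was -0.79 on the log2 scale (adjusted p = 0.0409, limma), with every LN111 array below every LN511 array. It was the single call among substrates over the 12 probes. Of 21 alternatives 15 lost the call, and the difference ran between -0.95 and -0.29 over all of them. The Relb probe by gene name differed by -0.70 (adjusted p = 0.0607). Of 9 stellate cell and fibroblast markers 5 were higher on LN111 than on LN511, where 6.1% of all genes were. Sums of the listed markers, which follow the brightest genes, were 49.6 to 88.5 on LN111 and 2.30 to 11.1 on LN511. The part of these cells in the Relb value was not tested.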

How the results depend on the processing

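Of 56 results given singly, 28 kept direction and call under every alternative run. The count of 10 probes higher in cultured cells than in MH was 10 whichever array was left out. With arrays left out in turn the count was 9 to 10 for LN111 against MH, 9 to 10 for LN511 against MH, 8 to 10 for Mat against MH, 0 for LN111 against Mat, 0 to 2 for LN511 against Mat, 0 to 1 for LN111 against LN511 and 0 to 2 for the F test. Leaving out LN111 replicate 2 gave 2 calls in LN511 against Mat (Relb and Tnfaip3), 1 (Nfkbiz) in LN111 against LN511 and 2 in the F test (Nfkbiz and Relb), and leaving out LN111 replicate 3 gave 1 (Relb) in LN111 against LN511. Without LN111 replicate 2 and Mat replicate 2 together, LN111 against LN511 had 1 call and the F test 1, both Nfkbiz. The normexp correction gave 1 call in LN111 against LN511 and 1 in the F test, both Relb, and no scaling gave 1 (Nfkbiz) in LN511 against Mat.

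Without scaling, the median of all probes was 0.88 for cultured cells against MH and -0.96 for LN511 against Mat. Relative to Mat, LN511 values were then -0.39 for the second Nfkb1 probe, -0.52 for Relb, -0.39 for the second Relb probe and -0.05 for Tnfaip3, none of them passing. Normexp turned Rel to -0.17 on LN111 and -0.26 on Mat against MH and the second Nfkb1 probe to -0.07 on Mat, none passing. The offset compresses dim probes by construction. Other causes were not tested.

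Deviations from group means correlated at 0.069 to 0.716 (median 0.529) over the 9 same-number pairs of cultured arrays, at -0.651 to 0.527 over their 18 other pairs and at -0.031 to 0.062 over the 9 same-number pairs with MH. Not all pairs reached 0.1 in LN111 against Mat (lowest 0.083) and LN111 against LN511 (lowest 0.069), and 9 of 12 arrays correlated best with one of their own number. With a replicate block the counts were 3 of 10 in LN511 against Mat (13.1% of all probes), 0 of 10 in LN111 against Mat (0 of all probes), 4 of 10 in LN111 against LN511 (Birc3 at -1.46, adjusted p = 0.00139, Nfkbiz, Relb and Tnfaip3, 26.8% of all probes) and 3 of 10 in the F test (Birc3, Tnfaip3 and the second Nfkb1 probe, 21.4%). With slide as a block 0 of 10 passed in LN511 against Mat, where 0.353% of all probes were higher and 0.0223% lower. Signal near background limits Rel, the second probes of Nfkb1 and Relb, and Tnfaip3 in MH.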

Other observations

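Further genes of the pathway lists differed widely from MH, and the following were chosen after their values were seen. Tnfrsf12a, the receptor of the cytokine TWEAK, was 5.37 ± 0.15 higher in cultured cells on the log2 scale (adjusted p = 1.57e-09, limma), and Irak3, a brake on interleukin-1 and Toll-like receptor signalling, was 2.89 ± 0.18 higher. Sigirr, another inhibitor of that receptor family, was lower, at -4.06 ± 0.32 (adjusted p = 1.33e-06). Zc3h12a, which encodes an RNase that degrades cytokine transcripts, was at least 11.5-fold higher in cultured cells, since no MH array was well above background there. It passed the filter on dim probes only through the cultured groups.

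Among the target genes, those that were lower in cultured cells were Saa4, Cfb, C3 and Xiap. Cfb, a complement factor made by hepatocytes, differed by -4.36 ± 0.57 and C3, the central complement protein, by -3.54 ± 0.73. On the substrates, LN111 was higher than LN511 for Ptx3 (4.22, adjusted p = 0.00939) and lower for Plau (-2.29, adjusted p = 0.0103) and Cxcl10 (-1.76, adjusted p = 0.0107).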
